A study of Mus musculus with 9 samples.

Results

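The genes described here are 7 members of the LY6/uPAR family (Tex101, Ly6k, Lypd4, Spaca4, Ly6e, Ly6a and Ly6c1) and Ace, 8 of the 38674 genes in the table of testis transcripts. They were selected by name, with no threshold, but with earlier results of these same mice in view, so their values between genotypes are descriptions, and the p-values beside them, adjusted over all genes tested, are not independent evidence. The mice were C57BL/6 males of 3 genotypes: Pfn3+/+ (WT), Pfn3+/- (Het) and Pfn3-/- (KO), with 3 animals each. In the study, Pfn3 was deleted with CRISPR/Cas9 in 3 mouse lines, and the labels give neither the line nor the age of the animals sequenced, which the study's methods describe as sexually mature. RNA came from whole testis freed of the tunica albuginea and was read by QuantSeq, in which each read marks the 3′ end of a polyadenylated transcript. Values are normalized counts, that is, reads on a gene divided by 1 size factor per animal.

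LY6/uPAR proteins share a small, disulfide-bonded three-finger fold, and most are held at the cell surface by a glycosylphosphatidylinositol (GPI) lipid anchor in place of a membrane-spanning segment. TEX101, LY6K and LYPD4 are made in male germ cells, where they are needed for ADAM3 to reach the sperm surface in its mature form and for sperm to enter the oviduct, and SPACA4 is a sperm surface protein with a part in fertilization. LY6E is made in many tissues and serves as the receptor for syncytin A in the placenta, while LY6A and LY6C1 mark endothelial cells, leukocytes and progenitor cells. ACE, angiotensin-converting enzyme, is a transmembrane peptidase whose shorter germ-cell form starts inside the gene and is known to release TEX101 from sperm. The 8 genes are thus a set in which ACE has no GPI anchor and LY6E, LY6A and LY6C1 are not restricted to germ cells.

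On GRCm38, 4 of the genes lie in 1 stretch of chromosome 15: Ly6k (chr15:74796874-74799986, minus strand), Ly6e (chr15:74955051-74959905, plus strand), Ly6a (chr15:74994877-74998031, minus strand) and Ly6c1 (chr15:75044018-75048830, minus strand). Tex101 (chr7:24668007-24676675), Lypd4 (chr7:24864620-24869941) and Spaca4 (chr7:45725107-45725813) lie on the minus strand of chromosome 7. Ace lies on the plus strand of chromosome 11 (chr11:105967945-105989964). The annotation gives Ace 4 transcripts. Besides the full-length one, they start inside the gene at bases 105971323, 105975208 and 105976605. The start at base 105975208 is the one called the internal start here. The annotated ends of the full-length transcript and of the one from the internal start also differ, at bases 105989964 and 105989253. The table holds 1 value for the whole gene, which does not separate somatic from germ-cell ACE.

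RefSeq promoter windows on GRCm38.p6, from 250 bases before to 50 bases after a start site, were found for 5 of the 8 genes (Tex101, Lypd4, Spaca4, Ace and Ly6c1). The windows of the 4 genes with germ-cell transcripts are shown because Lypd4 and Spaca4 had lower values in each KO animal than in each WT animal, while Tex101 did not, and because the internal start of Ace is the one used in germ cells. Capitals mark TGAGGTCA or, where it is on the other strand, TGACCTCA, which differ from the cyclic AMP response element TGACGTCA. Each line reads 5′ to 3′ along the gene's own strand. The Lypd4 window lies inside the gene as annotated, whose longest transcript starts at base 24869941. The Tex101 window is that of the transcript starting at base 24672050, and the other 2 annotated Tex101 transcripts start at base 24676675, outside it.

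Spaca4, chr7:45725767-45726066, minus strand: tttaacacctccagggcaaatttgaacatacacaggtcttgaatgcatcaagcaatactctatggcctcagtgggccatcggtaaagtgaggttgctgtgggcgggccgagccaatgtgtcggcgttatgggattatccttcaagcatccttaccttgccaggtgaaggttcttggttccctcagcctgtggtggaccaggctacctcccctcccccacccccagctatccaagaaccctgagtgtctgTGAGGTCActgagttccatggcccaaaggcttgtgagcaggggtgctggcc

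Lypd4, chr7:24869642-24869941, minus strand: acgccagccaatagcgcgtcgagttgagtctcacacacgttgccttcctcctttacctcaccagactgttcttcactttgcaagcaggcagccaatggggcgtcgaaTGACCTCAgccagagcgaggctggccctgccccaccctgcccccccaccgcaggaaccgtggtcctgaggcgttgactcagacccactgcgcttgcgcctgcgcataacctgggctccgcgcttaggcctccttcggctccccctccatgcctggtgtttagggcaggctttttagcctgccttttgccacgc

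Ace, internal start, chr11:105974939-105975238, plus strand: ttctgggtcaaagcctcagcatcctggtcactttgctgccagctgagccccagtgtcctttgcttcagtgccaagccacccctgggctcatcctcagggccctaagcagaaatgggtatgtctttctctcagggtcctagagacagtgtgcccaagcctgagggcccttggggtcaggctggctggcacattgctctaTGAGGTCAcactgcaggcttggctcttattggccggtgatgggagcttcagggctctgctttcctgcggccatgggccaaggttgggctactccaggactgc

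Tex101, chr7:24672001-24672300, minus strand: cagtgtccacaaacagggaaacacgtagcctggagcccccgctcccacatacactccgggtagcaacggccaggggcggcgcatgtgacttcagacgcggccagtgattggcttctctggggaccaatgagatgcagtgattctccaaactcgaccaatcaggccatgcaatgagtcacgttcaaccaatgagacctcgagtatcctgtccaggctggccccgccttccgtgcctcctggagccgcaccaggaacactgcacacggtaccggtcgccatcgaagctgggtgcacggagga

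The 8-letter element occurs in 1 copy in the windows of Spaca4, Lypd4 and the internal start of Ace, and not in those of Tex101, Ly6c1 or the full-length start of Ace. It begins 1 base before the RefSeq start site of Spaca4 and 143 bases before that of Lypd4 (on the other strand). In the internal Ace window it begins 52 bases before the RefSeq start site. These RefSeq start sites are bases 45725816, 24869691 and 105975189, which differ from the annotated starts given above. Of all 32851 windows in the RefSeq table, 2.17% hold it on either strand. CCAAT, or ATTGG on the other strand, occurs 4 times in the Tex101 window, 2 times in that of Lypd4 and 1 time each in those of Spaca4 and the internal start of Ace, and 37.41% of all windows hold it at least 1 time. The letters were searched for after the sequences had been read, and a match is a description of the sequence, not of a bound factor.

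Reads counted on genes numbered 3375546 to 4287335 per animal, and 3 reads, taken as the limit of detection, were worth 2.58 to 3.71 normalized counts. Pfn3 itself was at 592, 383 and 373 normalized counts in WT, 136, 339 and 326 in Het and 74.7, 215 and 279 in KO, and all KO animals were lower than all WT animals (log2 fold change −1.41, SE 0.52, limma adjusted p = 0.610). Reads from the 3′ end of Pfn3 do not check the deletion itself. WT replicate 1 stood apart from its group: it had the fewest genes above 0, 18229, and 64.6% to 65.2% of genes with enough reads differed by more than 2 Poisson standard deviations between it and the other WT animals, against 34.0% between those. KO replicate 2 (49.3% and 54.7%, against 31.2% between the other KO animals) and Het replicate 1 (48.8% and 55.9%, against 35.7%) also differed more from their groups. Some results of the 8 genes that rest on 1 of these animals are also given without it. Markers of the epididymis summed to 0 to 8.69 normalized counts, with Lcn5, Lcn8, Rnase9 and Adam7 at 0 in all 9 animals. In whole testis, fewer cells of a type and less RNA per cell cannot be told apart.

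All 8 genes passed the filter, a minimum of 10 normalized counts in 3 or more of the 6 animals compared. A gene was called when its adjusted p-value in limma was under 0.05 and its log2 fold change was over 1.5 in either direction. By this rule 0 of the 8 genes were called in KO against WT, where 0.0352% of 14223 genes were called, and 0 in edgeR. With DESeq2, run on reads recovered from the values, 1 of them was called, Ly6e, where DESeq2 called 100 of the 14223 genes (0.703%). In Het against WT 0 of the 8 were called by limma, edgeR or DESeq2, where limma called 0% of 14216 genes and DESeq2 0.218%. In KO against Het 0 of the 8 were called by any of these tools, where limma called 0.0558% of 14343 genes and DESeq2 0.265%. At an unadjusted limma p under 0.05, Ly6e and Spaca4 differed between KO and WT (8.07% of all genes did), 0 of the 8 genes between Het and WT (3.34% of all genes) and Ace between KO and Het (3.56% of all genes).

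**Figure D1:**
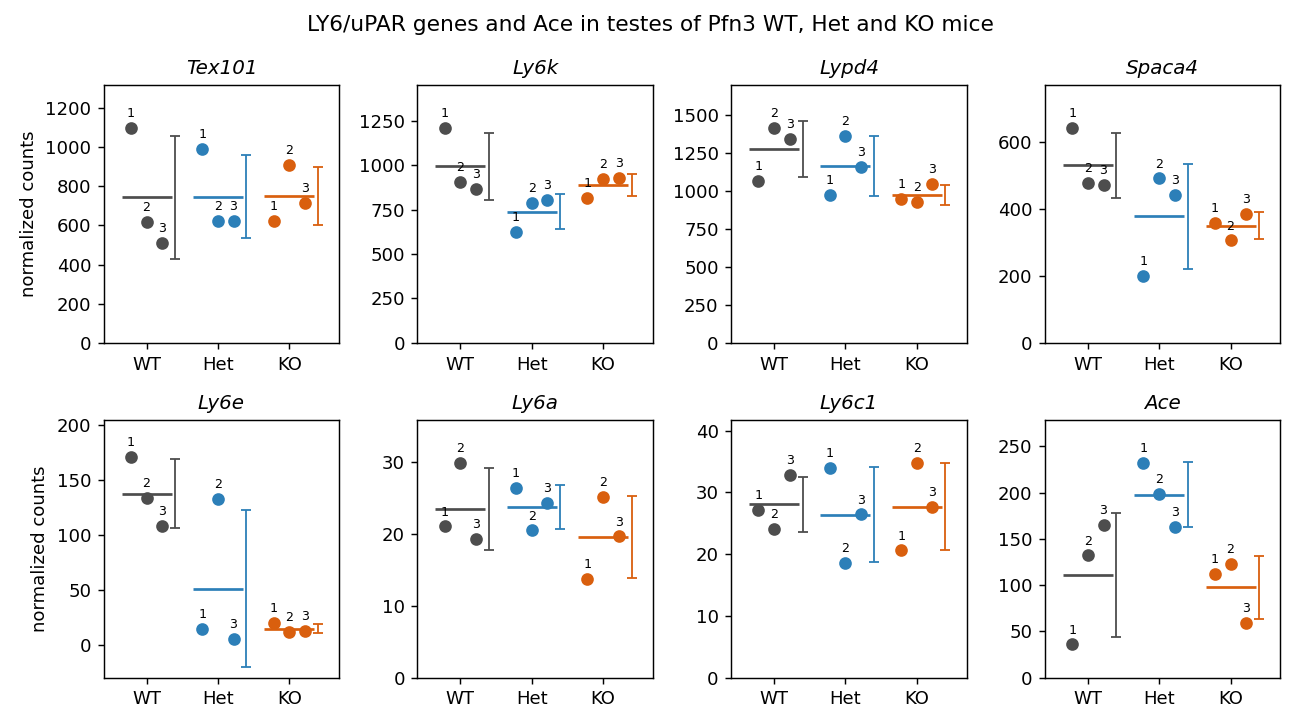
Normalized counts (y axis, a separate linear scale per gene) of the 8 genes in each animal of the 3 genotypes (x axis); points carry the replicate number, horizontal lines are means and bars to the right are ± 1 SD (n = 3). Ly6e is at 108 to 171 in WT and at 11.6 to 19.8 in KO, with Het replicate 2 at 133 among the WT animals, while the 3 genotypes overlap for Tex101, Ly6a and Ly6c1.

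Ly6e showed the widest difference of the set between KO and WT. Its normalized counts were 171, 134 and 108 in WT, 14.2, 133 and 5.29 in Het, and 19.8, 11.6 and 12.5 in KO. Every KO animal lay far below every WT animal, and the Het animals were divided, with replicate 2 among the WT animals and replicates 1 and 3 at or under the level of KO. Mean values were 138 ± 31.5 (WT), 50.9 ± 71.4 (Het) and 14.6 ± 4.47 (KO; SD, n = 3 each), so WT exceeded KO 9.41 times. The KO minus WT log2 fold change was −3.16 (SE 0.31, 95% confidence interval −3.91 to −2.41, limma adjusted p = 0.0840), and 0.352% of the genes tested changed by as much in either direction. The log2 fold change ran from −3.38 to −2.86 over 16 alternatives, and the adjusted p from 2.25e-10 to 0.534. Ly6e passed the cutoffs under 2 of these, with DESeq2 (log2 fold change −3.21, adjusted p = 2.25e-10) and with limma without WT replicate 1 (adjusted p = 0.0430), and edgeR gave an adjusted p of 0.116. DESeq2 without WT replicate 1, a fit added after the values had been seen, gave −3.02 (adjusted p = 1.75e-09).

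Het against WT, Ly6e had a log2 fold change of −2.54 (SE 1.09, limma adjusted p = 0.779), which became −3.80 without Het replicate 2. With edgeR and DESeq2 it was −1.40 and −1.43. KO against Het it was −0.62 (SE 1.10, limma adjusted p = 0.974), and 0.64 without that animal, while edgeR and DESeq2 gave −1.77 and −1.79. The sign of the limma difference between KO and Het in Ly6e thus turned on 1 animal. The lowest Ly6e value, that of Het replicate 3, rested on 5 reads, above the limit of detection. Among the 14865 genes that reached 10 normalized counts in 3 or more of the 9 animals, 7.01% were as spread over the 9 animals as Ly6e or more (SD 1.86 of log2(value + 1)).

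The genes whose values followed Ly6e most closely over the 9 animals were Wdr60, which codes for a dynein intermediate chain of cilia, and Ubap2l, which codes for an RNA-binding protein of stress granules. Their Pearson correlations with Ly6e on log2(value + 1) were 0.972 and 0.968, the highest among 5851 genes with a mean of at least 100. Wdr60 had 613, 406 and 521 normalized counts in WT, 166, 397 and 132 in Het and 223, 142 and 158 in KO. In Wdr60 too, Het replicate 2 lay near the WT animals and Het replicates 1 and 3 near the KO animals. Het replicate 2 was also the highest Het animal for Ubap2l, with 431 against 299 and 276. The 9 points share their libraries, and the correlations are descriptions.

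**Figure D2:**
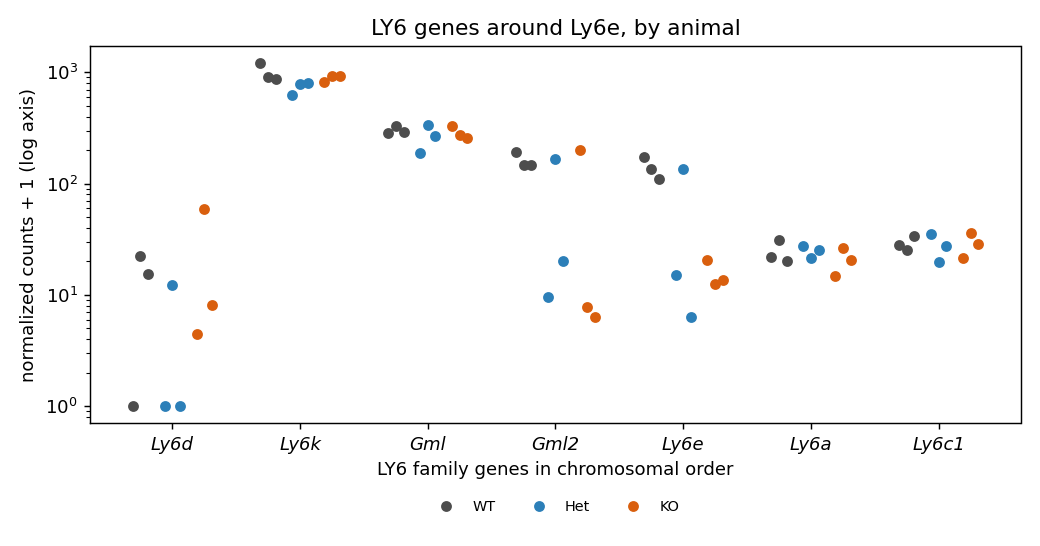
Normalized counts + 1 (y axis, log scale) of the LY6 family genes within 200 kb of Ly6e, in chromosomal order (x axis), with 1 point per animal coloured by genotype. Ly6e and Gml2 have animals at 2 separate levels, while Ly6k, Gml, Ly6a and Ly6c1 keep the 9 animals close together.

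The LY6 genes around Ly6e did not share its pattern across the KO animals. Gml2, a GPI-anchored LY6-related gene, had 191, 147 and 146 normalized counts in WT, 8.50, 166 and 19.0 in Het and 198, 6.77 and 5.36 in KO. Gml2 and Ly6e thus divided the Het animals in the same way. KO replicate 1, however, was at the WT level for Gml2 and at the KO level for Ly6e. The Gml2 log2 fold change was −2.91 (SE 1.31, limma adjusted p = 0.612). Without KO replicate 1 it was −4.51 (limma adjusted p = 0.0393), but that fit drops the KO animal that lay with WT. With any other animal left out, the limma adjusted p was 0.564 to 0.8135. Gml, next to Gml2, had 284, 326 and 292 in WT, 189, 337 and 268 in Het and 329, 273 and 258 in KO (log2 fold change −0.07, SE 0.19), with overlapping genotypes. Ly6d ran from 0 to 58.1 normalized counts over the 9 animals, with 0 in WT replicate 1 and Het replicates 1 and 3, and its genotypes overlapped.

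Ly6a and Ly6c1, the members known from endothelial cells and leukocytes, had few reads and no separation between genotypes. Ly6a had 21.0, 29.9 and 19.3 normalized counts in WT, 26.5, 20.5 and 24.3 in Het and 13.7, 25.2 and 19.7 in KO. Its KO minus WT log2 fold change was −0.27 (SE 0.35, 95% confidence interval −1.12 to 0.59, limma adjusted p = 0.765). Ly6c1 had 27.2, 24.1 and 32.8 in WT, 34.0, 18.6 and 26.5 in Het and 20.6, 34.8 and 27.7 in KO, a log2 fold change of −0.04 (SE 0.30, 95% confidence interval −0.77 to 0.70). For each gene, all 3 genotypes overlapped. Of the 50-base stretches in their annotated transcripts, 18.97% for Ly6a and 32.77% for Ly6c1 also occur in other genes, 195 of them shared between both, so reads may be divided among them and their values are uncertain. The other 6 genes share none on the same strand.

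Summed endothelial markers ran from 215 to 265 normalized counts in WT, 255 to 295 in Het and 240 to 305 in KO, and macrophage and leukocyte markers from 393 to 493, 319 to 421 and 344 to 575. Neither sum separated KO from WT, and 5 of 10 endothelial and 7 of 10 macrophage and leukocyte markers had a mean of at least 10.

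Tex101 codes for the germ-cell glycoprotein that pairs with LY6K. It had 1097, 619 and 511 normalized counts in WT, 990, 624 and 624 in Het and 621, 910 and 712 in KO. In each genotype 1 animal was above the other two, and the genotypes overlapped completely. Mean values were 742 ± 312 (WT), 746 ± 211 (Het) and 748 ± 148 (KO; SD, n = 3 each), a KO minus WT log2 fold change of 0.07 (SE 0.33, 95% confidence interval −0.72 to 0.87, limma adjusted p = 0.943), or 0.39 without WT replicate 1. The genes most like Tex101 over the 9 animals were Swi5, a recombination factor (r = 0.982), and Hsf5, a testis heat shock factor of meiotic cells (r = 0.979). The correlations were taken over 5850 genes.

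Ly6k was lowest in the Het animals. Its values were 1210, 905 and 866 in WT, 625, 788 and 803 in Het and 817, 923 and 929 in KO. Each Het animal lay below each WT animal and below each KO animal, while KO and WT overlapped. Of all genes, 6.49% had each Het animal below each WT animal (6.76% above, 0 of the 8 genes), and 5.12% had each KO animal above each Het animal. The log2 fold changes were −0.42 for Het against WT (SE 0.21, limma adjusted p = 0.779), 0.27 for KO against Het (SE 0.15, limma adjusted p = 0.973) and −0.15 for KO against WT (SE 0.19, 95% confidence interval −0.61 to 0.32). Without WT replicate 1, the highest animal, Het against WT was −0.27 and KO against WT was 0.0043. Without Het replicate 1, the lowest animal, KO against Het was 0.16. Scaled by the reads counted per library, Het and WT overlapped. The antisense gene Gm17189, which shares 32.69% of the Ly6k stretches on the opposite strand, had 0 to 3.73 normalized counts.

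Lypd4 was lower in KO than in WT by a small amount. It had 1066, 1413 and 1340 normalized counts in WT, 972, 1363 and 1157 in Het and 947, 928 and 1047 in KO. The KO animals were all lower than the WT animals, though KO replicate 3 came close to WT replicate 1, and the Het animals spanned both. Mean values were 1273 ± 183 (WT), 1164 ± 196 (Het) and 974 ± 63.9 (KO; SD, n = 3 each), a KO minus WT log2 fold change of −0.38 (SE 0.18, 95% confidence interval −0.81 to 0.05, limma adjusted p = 0.613), or −0.50 without WT replicate 1.

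Spaca4 had the second largest KO minus WT difference of the set. Its normalized counts were 641, 478.5 and 470 in WT, 199, 491 and 441 in Het, with 358, 306 and 385 in KO. The KO animals were all lower than the WT animals, and Het replicate 1 was the lowest of all 9 animals while the other Het animals lay near WT. Mean values were 530 ± 96.5 (WT), 377 ± 156 (Het) and 349.7 ± 40.4 (KO; SD, n = 3 each). The KO minus WT log2 fold change was −0.59 (SE 0.21, 95% confidence interval −1.09 to −0.09, unadjusted p = 0.0283, limma adjusted p = 0.610), and −0.45 without WT replicate 1. Fam83e, which encloses Spaca4 on the opposite strand, had 0 to 18.4 normalized counts.

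Ly6e, Lypd4 and Spaca4 were the 3 genes of the set with each KO animal below each WT animal, an order that 10.5% of all genes tested had, and 0 of the 8 had the opposite order, which 9.41% of all genes had. Scaled by reads counted per library, 2 of the 3 (Ly6e and Spaca4) kept this order, and the KO minus WT log2 fold changes were −0.17 for Lypd4 and −0.39 for Spaca4, against a median of 0.22 over all genes on that scale. Sums of late germ cell markers were also lower in KO than in WT. Summed round spermatid markers (7 genes) were 4749 to 5558 normalized counts in WT, 4044 to 4782 in Het and 2410 to 4048 in KO, with the lowest value in KO replicate 2. Of these 7 genes, 5 had a KO minus WT log2 fold change below 0 and 2 above (Spaca1 and Tex36), with 1 at an unadjusted p under 0.05 and a list median of −0.60. All 4 elongating spermatid markers had KO minus WT log2 fold changes below 0, with a median of −0.58. Their sums were 2.333e+05 to 2.494e+05 in WT, 1.791e+05 to 2.149e+05 in Het and 1.234e+05 to 1.997e+05 in KO. Each Het sum was thus also below each WT sum, and the Het minus WT median was −0.32. Spermatocyte markers summed to 5219 to 6567 in WT, 5306 to 8138 in Het and 7934 to 8640 in KO. Of the 8 spermatocyte markers 7 were tested, and all 7 had KO minus WT log2 fold changes above 0, with a median of 0.65. For its own markers of cell types, transition proteins and protamines among them, the study reported no significant difference between genotypes. Per 1000 counts of round spermatid markers, Spaca4 was 115, 101 and 97.9 in WT and 88.5, 127 and 95.6 in KO, and Lypd4 was 192, 298 and 279 in WT and 234, 385 and 260 in KO. On this scale KO and WT overlapped for both (log2 differences −0.03 and 0.18). For Spaca4 the overlap came from KO replicate 2 alone, and without that animal, whose marker sum was the lowest, the differences were −0.18 for Spaca4 and −0.03 for Lypd4. Ly6e was at 30.7, 28.2 and 22.5 in WT and 4.88, 4.82 and 3.11 in KO (log2 difference −2.69). Its unscaled gap, from 19.8 in KO to 108 in WT, is wider in proportion than the marker sums, 2410 to 5558. This scale could therefore not have made KO and WT overlap for Ly6e, and the part of cell composition in Ly6e was not tested. This scale, with and without KO replicate 2, was added after the values had been seen.

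**Figure D3:**
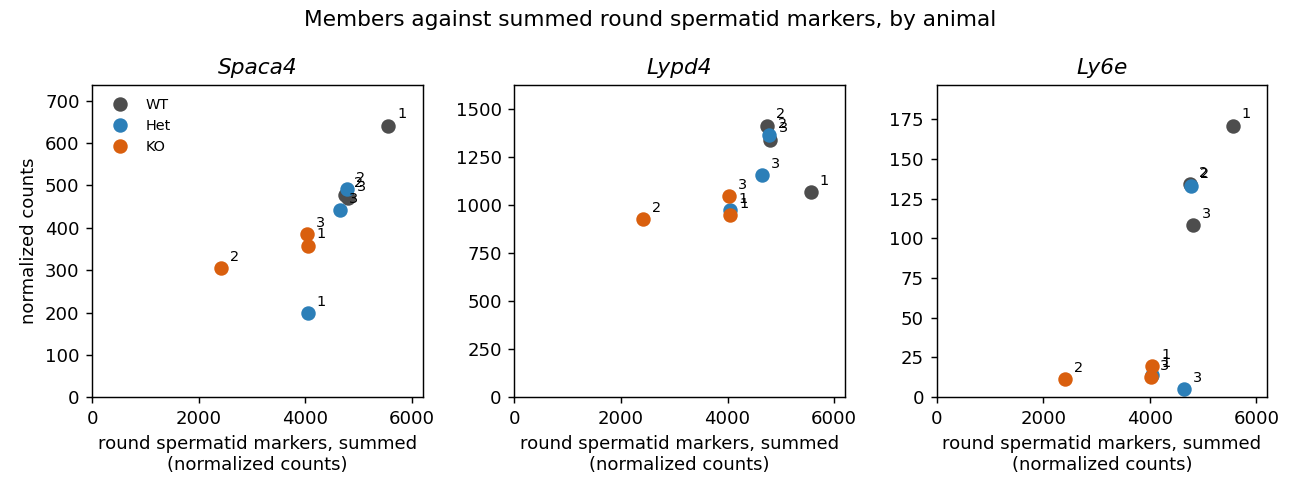
Normalized counts of Spaca4, Lypd4 and Ly6e (y axes) against the sum of 7 round spermatid markers (x axis, normalized counts), 1 point per animal with its replicate number, coloured by genotype. The KO animals lie at 2410 to 4048 on the x axis, left of the WT animals at 4749 to 5558; for Ly6e, Het replicates 2 and 3 are close together on the x axis and at 133 and 5.29 on the y axis.

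The genes most like Spaca4 were Trim80 (r = 0.987) and Fam221b (r = 0.985), and those most like Lypd4 were 1700016H13Rik (r = 0.958) and Vwa3b (r = 0.935). Ly6k was most like Ccs, the copper chaperone for superoxide dismutase (r = 0.964), and Fibp (r = 0.955). At r of at least 0.9, Spaca4 had 114 genes, Ly6k 37, Ly6e 32, Tex101 28, Lypd4 18, Ace 7, Ly6c1 1 and Ly6a 0. Each r is over 9 animals that share their libraries.

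Ace had its highest mean in the Het animals, whose values overlapped those of WT. It had 35.9, 132 and 165 normalized counts in WT, 232, 198 and 163 in Het and 112, 123 and 59.0 in KO. The KO animals were all lower than the Het animals, an order that 4.90% of all genes had, and WT replicate 1 was the lowest of the 9 animals. The KO minus Het log2 fold change was −1.06 (SE 0.32, 95% confidence interval −1.84 to −0.28, unadjusted p = 0.0156, limma adjusted p = 0.973). Against WT the comparison depended on WT replicate 1: KO minus WT was 0.01 (SE 0.63, 95% confidence interval −1.51 to 1.53), and −0.66 without it, and Het minus WT was 1.07 (SE 0.58, limma adjusted p = 0.779), and 0.40 without it. The genes most like Ace were the ubiquitin-conjugating enzyme gene Ube2h (r = 0.948) and Acp1 (r = 0.946), and Acp1 was likewise lowest in WT replicate 1. The antisense gene Gm11651, which shares 3.77% of the Ace stretches on the opposite strand, had 52.2 to 121 normalized counts, and whether the counting used strand is not given in the sources used here.

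**Figure D4:**
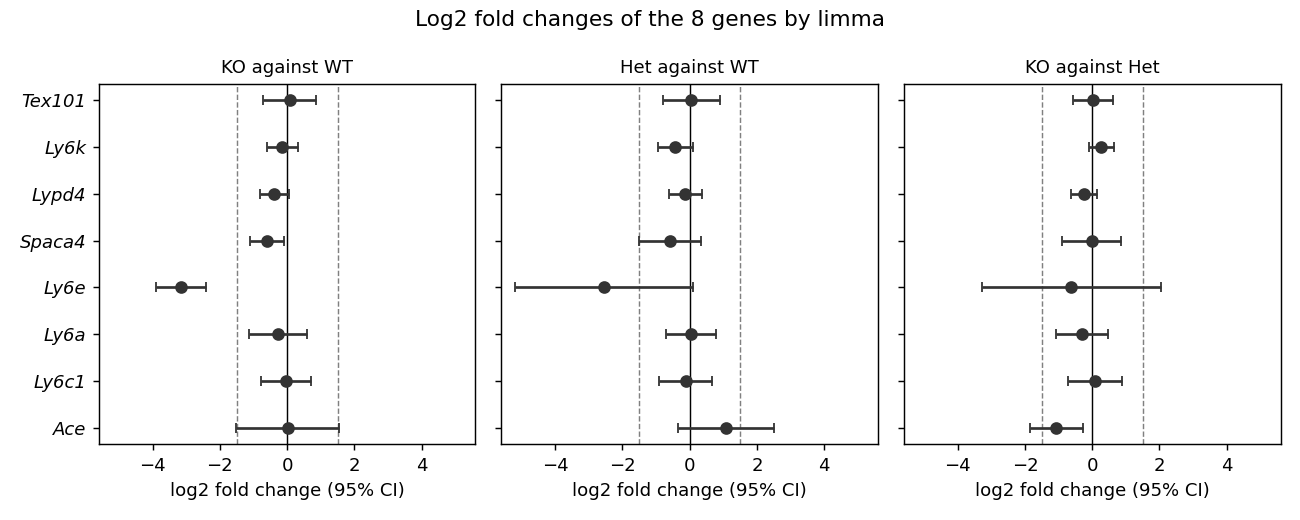
Log2 fold changes by limma on log2(normalized count + 1) (x axis) of the 8 genes (y axis) for the 3 pairs of genotypes, 1 panel each; bars are 95% confidence intervals, and dashed lines mark ± 1.5. The interval of Ly6e in KO against WT, −3.91 to −2.41, lies wholly beyond the dashed line, and of the other 7 intervals in that panel the one of Spaca4, −1.09 to −0.09, leaves out 0.

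Other genes of the family and of the routes these proteins take were taken from lists by function, and 0 genes of any of these lists were called by limma or edgeR in any comparison. DESeq2 called 2 of them, Dpm2 and Calr3, both in KO against WT, where it called 0.703% of all genes. Of 53 other LY6/uPAR family genes, 35 were in the table and 8 passed the filter in KO against WT. Of these 8, 2 were higher and 6 lower in KO, with a median log2 fold change of −0.31 beside 0.02 over all genes tested. The largest difference upward was that of Cd59a, a complement inhibitor, at 0.94 (SE 0.44, limma adjusted p = 0.613), and the largest downward that of Gml2, given above. Cd59a had 85.4, 139 and 126 normalized counts in WT, 264, 274 and 217 in Het and 116, 300 and 309 in KO. Ly6g6c was the 1 gene of the list with an unadjusted p under 0.05 in KO against WT (log2 fold change −1.15, limma adjusted p = 0.610), and is named after its values were seen.

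Among other GPI-anchored proteins of germ cells and sperm, 15 were tested, 9 higher and 6 lower, with a median of 0.03 and 0 at an unadjusted limma p under 0.05. Art3, an ADP-ribosyltransferase family gene, had the largest difference upward at 1.52 (SE 1.18, limma adjusted p = 0.658), and it rested on WT replicate 1, with 24.8 normalized counts against 540 and 524 in the other WT animals (0.06 without it). Prss41, a serine protease, had the largest difference downward at −0.97 (SE 0.65, limma adjusted p = 0.643; −0.44 without WT replicate 1).

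The machinery that builds and attaches the GPI anchor gave a median of −0.01 over 27 genes tested, 13 higher and 14 lower. Dpm2 was the 1 gene of this list with an unadjusted limma p under 0.05 in KO against WT. It codes for a subunit of the enzyme that makes dolichol-phosphate mannose, the mannose donor for GPI anchors and N-glycans. The study picked Dpm2 out by RNA-seq of these same animals, so its difference here is not independent evidence. The study also reported Dpm2 as lower in KO by qRT-PCR. Normalized counts of Dpm2 were 234, 158 and 160 in WT, 125, 10.2 and 8.47 in Het and 18.9, 6.77 and 5.36 in KO. Values in KO were all lower than those in WT, and Het replicate 1 alone of the Het animals was near WT, whereas for Ly6e that animal was Het replicate 2. The Dpm2 log2 fold change was −4.19 (SE 0.48, limma adjusted p = 0.106; DESeq2 adjusted p = 4.82e-10). Without KO replicate 1 it was −4.69 (limma adjusted p = 0.0393), but that fit drops the KO animal with the highest Dpm2 value. Dropping any other animal instead gave limma adjusted p-values of 0.103 to 0.413, all above the cutoff. DESeq2 without WT replicate 1 gave −3.92 (adjusted p = 9.71e-08). The largest difference upward was that of Pigg, which adds ethanolamine phosphate to the anchor, at 0.83 (SE 0.63, limma adjusted p = 0.654; 0.19 without WT replicate 1).

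For the maturation of ADAM3 on the sperm surface, the route that needs TEX101, LY6K, LYPD4 and ACE, 12 genes were tested, 4 higher and 8 lower in KO than in WT, with a median of −0.24. Calr3, a testis calreticulin that chaperones ADAM3, had the largest difference downward at −2.37 (SE 0.76, limma adjusted p = 0.610; DESeq2 adjusted p = 0.0487). Its values were 917, 149 and 182 normalized counts in WT, 25.5, 156 and 47.6 in Het and 86.8, 31.9 and 62.6 in KO, so that KO and WT did not overlap and Het replicate 2 was again with WT. The size rested on WT replicate 1: without it the log2 fold change was −1.54 by limma (adjusted p = 0.504) and −1.44 by DESeq2 (adjusted p = 0.166). Pdilt, the partner of CALR3 in ADAM3 folding, had a log2 fold change of −0.96 (SE 0.37, limma adjusted p = 0.610; −0.58 without KO replicate 2), and these were the 2 genes of the list at an unadjusted p under 0.05. Adam3 itself had 1822, 1690 and 2171 in WT and 1615, 1241 and 1779 in KO, overlapping values (log2 fold change −0.30, SE 0.20). Tpst2, a tyrosylprotein sulfotransferase, had the largest difference upward at 2.13 (SE 1.62, limma adjusted p = 0.654; 1.09 without WT replicate 1), with 0, 1.93 and 24.1 in WT and 1.72, 59.0 and 36.6 in KO. The round spermatid sums given above were lower in the same KO animals, and their part in these values was not tested.

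In the renin-angiotensin system, in which ACE makes angiotensin II, 5 of 13 genes were tested, 4 higher and 1 lower, with a median of 0.17 and 0 at an unadjusted limma p under 0.05. Mme, which codes for neprilysin, was at 0.52 (SE 0.34, limma adjusted p = 0.643), and Mas1, which codes for a receptor of angiotensin peptides, at −0.47 (SE 0.29, limma adjusted p = 0.637).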

How the data were processed

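Testis RNA of 9 mice, 3 per genotype, was analysed, with genotype and replicate number from the sample titles. The labels do not say how litters or lines relate the animals. The deposited values are a signal that the authors made from gene counts: QuantSeq reads were trimmed (Trim Galore 0.4.5), aligned to GRCm38 (HISAT2 2.1), assembled and counted per gene (StringTie 1.3.3), stripped of pseudogenes and divided by 1 DESeq2 size factor per sample. In each sample 100% of nonzero values were whole multiples of 1 read within 0.01 reads, so reads were recovered. Genes were counted on loci of a merged assembly.

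The members and lists were chosen with earlier results of these data known. Log2(value + 1) was tested with limma 3.58.1 (eBayes with trend, R 4.3.3) on the 6 animals compared, for genes with at least 10 in at least 3, with Benjamini-Hochberg adjustment over all genes tested. Fold changes on this scale understate those of low genes. edgeR 4.0.16 (quasi-likelihood, TMM) and DESeq2 1.42.0 on recovered reads, other pseudocounts, filters and scalings, all 9 animals in 1 fit, a replicate block and each animal left out were alternatives. DESeq2 without WT replicate 1 was added after the values had been seen. The fits were tested on simulated data. From each list were named the called genes and, for KO against WT, the tested genes with the largest rise and fall; for each member, the 2 genes of highest Pearson r among those with a mean of at least 100. Positions are from the GENCODE annotation of GRCm38, and promoters from RefSeq. Limits of detection and counts of reads cover counting error only.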

Additional observations from a re-analysis of the deposited data

How the results depend on the processing

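Of the 8 genes, 0 were called in KO against WT by limma, and 1 (Ly6e) with DESeq2; when each animal was left out in turn the number ran from 0 to 1, with the 1 reached without WT replicate 1. In Het against WT and KO against Het, 0 of the 8 were called under any of the 16 alternatives. Over all comparisons, 384 alternative values of member log2 fold changes were computed, and 33 had the other sign than the value reported. The largest reported value among these was that of Ly6e in KO against Het, which went from −0.62 to 0.64 without Het replicate 2. The number of genes called over the whole table depended more on the setting: in KO against WT it was 5, and 100 with DESeq2, 3 with all 9 animals, 0 with the replicate block and 0 to 49 with 1 animal left out (49 without WT replicate 1). In Het against WT it was 0 by limma and by edgeR, 31 with DESeq2, 2 with a pseudocount of 5, 3 with no filter, with a mean of at least 1 or with all 9 animals, 1 with TMM factors and 0 to 3 with 1 animal left out. In KO against Het it was 8, and 38 with DESeq2, 4 with all 9 animals, 0 with the replicate block and 0 to 39 with 1 animal left out (39 without Het replicate 2). Scaling by reads per library moved the median log2 fold change of all genes from 0.02 to 0.22 in KO against WT.

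Same-numbered animals of 2 genotypes deviated from their group means with correlations of −0.14 to 0.188, and differently numbered animals with −0.242 to 0.188. With 3 animals per genotype, these correlations cannot decide whether the numbers pair the animals. With the replicate number as a block (replicate block), Ly6e had an adjusted p of 0.531 in KO against WT, and 0 of the 8 genes were called in any comparison. Ly6e rested on 5 to 23 reads in the 5 animals with low values and on 112 to 143 in the others, so counting error is relatively larger in the first.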

Other observations

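The division of the animals seen for Ly6e was looked for in the whole table after its values were known. On log2(value + 1) the widest gap between neighbouring animals, 2.39, separated the WT animals and Het replicate 2 from the other 5 animals. Of 14865 genes, 17.55% had a widest gap of at least 2, and 9 genes, Ly6e included, had it between the same animals: Chaf1a, a histone chaperone subunit, Lrrc8a, a subunit of the volume-regulated anion channel, Copa, a subunit of the COPI coat, Slc25a36, a mitochondrial pyrimidine nucleotide carrier, Sap30bp, Cby3, Sh2d7 and 4930415O20Rik. The study listed Copa and Slc25a36 as downregulated in KO from RNA-seq of these same animals, and measured both by qRT-PCR. Copa had 214, 365 and 448 normalized counts in WT, 20.8, 401 and 27.5 in Het and 47.2, 30.0 and 36.6 in KO. Cby3 had 495, 248 and 264 in WT, 7.56, 243 and 14.8 in Het and 15.5, 4.84 and 4.47 in KO. Sh2d7 and 4930415O20Rik were at 0 in the other 5 animals, so their gaps rest on values near the floor. For Sh2d7, Het replicate 2 was at 3.73 normalized counts, below the WT animals at 20.3 to 48.3. How many genes had so wide a gap between any other set of animals was not counted. The 9 genes lie on chromosomes 1, 2, 9, 11, 15 and 17, and Ly6e and 4930415O20Rik are both on chromosome 15. The animals were grouped here by a measured value, so no test of these genes was made.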
